A study of Mus musculus with 6 samples.

Results

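The S100 calcium-binding proteins were followed here as 10 genes taken by symbol from the deposited count tables: S100a1, S100a4, S100a6, S100a8, S100a9, S100a10, S100a11, S100a14, S100a16 and S100b. All 10 were found among the 19893 gene symbols that have a transcript in every library, and 9 of them had enough counts to be tested. Transcript levels were measured in mammosphere cultures of MMTV-HER2/Neu mice on the FvB background, in which a mammary tumour virus promoter directs the Neu oncogene to the mammary epithelium. Early lesion (EL) spheres were grown from mice of 14 to 18 weeks in which no tumour could be felt, and primary tumour (PT) spheres from mice over 20 weeks of age. Both groups carry the same transgene and spent 7 days in non-adherent culture before polyadenylated RNA was taken. There are 3 libraries in each group, and the labels do not state whether each came from its own mouse. The p-values thus reflect how far these libraries vary, and that variation may be technical. No group without the transgene was analysed here, and a tissue label of the EL samples names lung as well as mammary tissue.

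S100 proteins are small proteins with a pair of EF-hand loops that bind calcium. Most work as dimers that open a binding face when calcium enters, and this face then holds partners such as annexins, tropomyosin or non-muscle myosin. Some members are also released from cells and act on surface receptors such as Ager (the receptor for advanced glycation end products) and Tlr4. In the mammary gland the members differ by cell type: S100a4 is known from fibroblasts, migrating cells and macrophages, S100a8 and S100a9 from neutrophils and stressed epithelium, S100a14 and S100a16 from epithelium, and S100b from glia and melanocytes.

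On the mouse genome (GRCm38, mm10), 9 of the 10 genes lie on chromosome 3. S100a1, S100a14, S100a16, S100a4, S100a6, S100a8 and S100a9 share a stretch of 184.7 kb, and S100a11 and S100a10 follow after a gap of 2825 kb, within 44.1 kb of each other. S100b stands alone on chromosome 10, at 76253836 to 76261319. S100a4 (90603770 to 90606045) and S100a6 (90612894 to 90614414) are separated by 6.85 kb. S100a1 (90511034 to 90514330, minus strand) overlaps the start of S100a13 (plus strand) by 98 bases, and since the strand setting of the counting is not given, reads from that overlap cannot be assigned to either gene.

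Promoter windows are printed for 6 genes because these are the 3 members with a TATAAA box (S100a4, S100a8, S100a9), the member whose window holds the most motif matches (S100a11) and the members with the highest rises in PT (S100a1, S100b). Each window runs from 250 bases before to 50 bases after the annotated start, from RefSeq on GRCm38, written 5′ to 3′ on the gene's strand, and 8 of the 10 genes have such a window. Capitals mark matches, on either strand, to any of 6 motifs. They are the TATA box as TATAAA, the element bound by nuclear factor Y as CCAAT, the GC box as GGGCGG, the AP-1 element as TGANTCA, the TEAD element as GGAATG and the C/EBP element as TTGCNNAA. The 6 motifs were searched on both strands and did not overlap one another where they matched.
S100a4 (chr3:90603520-90603819, plus strand): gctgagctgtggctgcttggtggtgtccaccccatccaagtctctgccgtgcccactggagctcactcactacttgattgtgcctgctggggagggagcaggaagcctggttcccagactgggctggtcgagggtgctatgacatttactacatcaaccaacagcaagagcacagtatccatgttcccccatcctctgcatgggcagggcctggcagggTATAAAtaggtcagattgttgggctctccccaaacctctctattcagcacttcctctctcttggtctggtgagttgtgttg
S100a8 (chr3:90668821-90669120, plus strand): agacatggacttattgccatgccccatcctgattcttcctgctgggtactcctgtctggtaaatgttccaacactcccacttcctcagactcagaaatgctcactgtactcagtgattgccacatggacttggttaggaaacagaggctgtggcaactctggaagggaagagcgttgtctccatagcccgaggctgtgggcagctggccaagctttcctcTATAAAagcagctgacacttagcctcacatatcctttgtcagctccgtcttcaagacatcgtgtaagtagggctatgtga
S100a9 (chr3:90695672-90695971, minus strand): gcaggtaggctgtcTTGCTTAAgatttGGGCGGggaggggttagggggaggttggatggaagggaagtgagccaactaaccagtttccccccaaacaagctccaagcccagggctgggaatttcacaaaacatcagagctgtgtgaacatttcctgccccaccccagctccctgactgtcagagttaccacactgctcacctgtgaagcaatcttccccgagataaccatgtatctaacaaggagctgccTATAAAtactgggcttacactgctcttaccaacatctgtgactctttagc
S100a11 (chr3:93520246-93520545, plus strand): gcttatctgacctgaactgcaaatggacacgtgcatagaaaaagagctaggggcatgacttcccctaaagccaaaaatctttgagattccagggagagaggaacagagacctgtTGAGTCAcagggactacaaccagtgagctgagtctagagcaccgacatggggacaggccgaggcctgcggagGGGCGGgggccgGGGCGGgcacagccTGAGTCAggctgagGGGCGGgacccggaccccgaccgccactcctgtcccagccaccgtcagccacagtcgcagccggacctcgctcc
S100a1 (chr3:90514281-90514580, minus strand): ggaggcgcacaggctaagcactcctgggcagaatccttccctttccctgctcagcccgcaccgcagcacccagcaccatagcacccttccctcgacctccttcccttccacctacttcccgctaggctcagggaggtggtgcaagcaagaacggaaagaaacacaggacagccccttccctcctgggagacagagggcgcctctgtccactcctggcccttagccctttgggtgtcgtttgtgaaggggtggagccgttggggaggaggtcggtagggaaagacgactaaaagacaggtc
S100b (chr10:76253586-76253885, plus strand): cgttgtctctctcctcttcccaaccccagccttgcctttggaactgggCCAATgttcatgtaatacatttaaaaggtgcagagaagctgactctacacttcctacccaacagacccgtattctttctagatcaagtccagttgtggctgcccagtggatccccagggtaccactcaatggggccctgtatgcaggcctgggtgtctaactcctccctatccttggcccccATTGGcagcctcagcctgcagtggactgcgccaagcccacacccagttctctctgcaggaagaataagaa
TATAAA began at base -31 in the S100a4 window, at -30 in the S100a8 window and at 1, the annotated start itself, in the S100a9 window. The S100a11 window held 3 copies of GGGCGG and 2 of TGAGTCA, and that of S100b held CCAAT once on each strand. None of the 6 motifs was found in the S100a1 window, which overlaps the window of S100a13 by 204 bases. Of all 32851 windows in the RefSeq table, 13.6% hold TATAAA, 37.4% CCAAT, 35.7% GGGCGG, 7.81% TGANTCA, 14.7% GGAATG and 10.8% TTGCNNAA. A match describes the letters of a window and was not tested as a binding site.

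Counts of the transcripts summed to between 69759793 and 73654058 per EL library and between 78054335 and 85126630 per PT library, and a read can count again for another transcript of its gene. With 1 transcript per symbol, the sums were 43271236 to 51111942 per library. Such sums are larger than a MiSeq run, the instrument the labels name, usually yields, and the sources used here do not settle how they arose, so a count may not stand for 1 independent read. Levels are given as CPM, counts relative to library totals scaled by TMM factors, and group values as mean ± SD over 3 libraries. Correlations of log2 CPM across genes were at least 0.995 within a group and at most 0.847 between groups. With this small spread and this distance between groups, edgeR's quasi-likelihood test called 80.7% of 13844 genes at an adjusted p under 0.05, 39.9% higher and 40.8% lower in PT. Against a minimum of 2-fold, edgeR called 24.6% of genes, 7.3% higher and 17.3% lower. Markers of other cell types moved strongly with the groups, fibroblast markers falling and luminal epithelial markers rising in PT, and their values are given after the members.

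Among the 9 tested members, 3 rose (S100b, S100a1, S100a11) and 6 fell (S100a4, S100a6, S100a14, S100a8, S100a16, S100a10) in PT spheres. By the 2-fold rule 1 rose (S100b) and 4 fell (S100a4, S100a6, S100a14, S100a8). For all 9, EL and PT libraries had separate ranges, which was also so for 82.7% of the genes tested. Their median log2 fold change, PT minus EL, was -0.29, against 0.0049 for all genes tested. Since most genes passed the adjusted p threshold and had separate ranges, a call at that threshold alone says little about an S100 gene here. The 2-fold rule was passed by 24.6% of genes tested. The sizes of the changes differed widely among the members, from 13.7-fold lower (S100a4) to 6.29-fold higher (S100b).

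**Figure D1:**
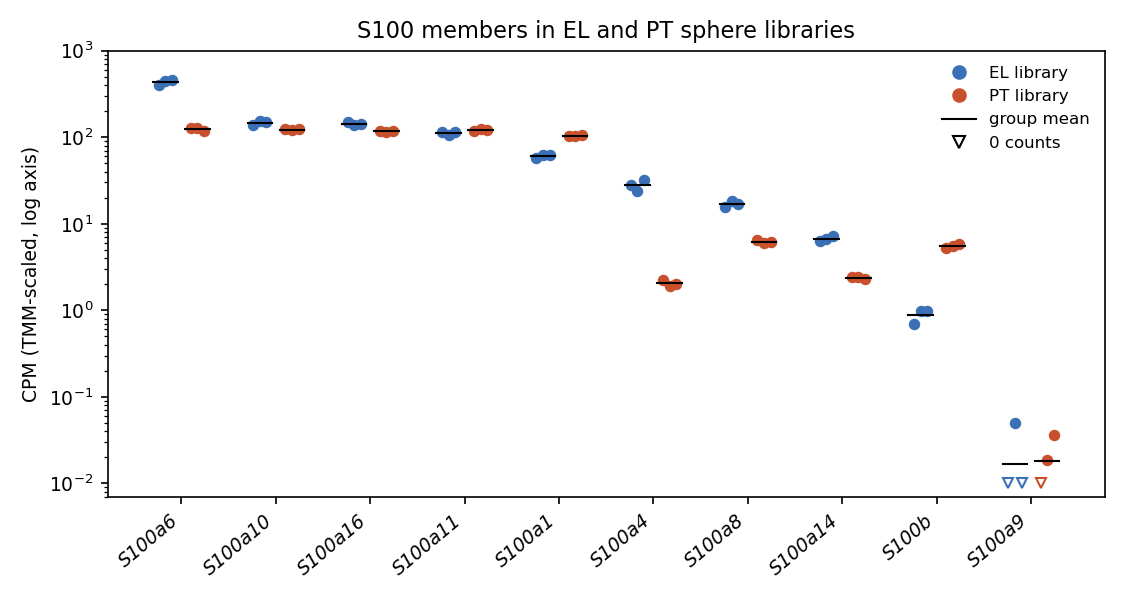
CPM (log axis) of the 10 S100 genes in each EL library (blue) and PT library (red), with a black line at the group mean and open triangles for libraries with 0 counts. S100a4 sits between 23.9 and 32.3 CPM in EL and between 1.89 and 2.22 in PT, S100b moves the other way, and S100a9 stays at or below 0.0503 CPM in every library.

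S100a4, which binds non-muscle myosin and is known from fibroblasts and motile cells, had the largest fall of the 9 tested members. Its levels were 28.1, 23.9 and 32.3 CPM in EL replicates 1 to 3 and 2.22, 1.89 and 2.03 CPM in PT replicates 1 to 3. Every PT library lay more than 10 times below every EL library. The mean went from 28.1 ± 4.17 to 2.05 ± 0.167 CPM, a log2 fold change of -3.78 (SE 0.12, 95% interval -4.04 to -3.52), with an adjusted p of 5.93e-12 in edgeR's quasi-likelihood test and 6.59e-11 against the 2-fold minimum. Of all tested genes, 7.55% had a lower log2 fold change.

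S100a6 (calcyclin), which is abundant in fibroblasts and proliferating epithelium, was the most abundant member in EL spheres. It stood at 405, 444 and 463 CPM in EL and at 128, 127 and 119.6 CPM in PT. All EL libraries were thus more than 3 times above all PT libraries. Its mean dropped 3.50-fold, from 437 ± 29.9 to 125 ± 4.64 CPM, with a log2 fold change of -1.81 (SE 0.05) and an edgeR adjusted p of 9.06e-13. S100a6 lies 6.85 kb from S100a4 in the cluster, with S100a5 between them. The count ratio of S100a6 to S100a4 was 15.8 ± 2.41 in EL and 61.2 ± 5.18 in PT.

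S100a8, a subunit of calprotectin, was detected without its usual dimer partner S100a9. S100a8 was at 15.8, 18.4 and 17.0 CPM in EL and at 6.55, 5.94 and 6.11 CPM in PT. It fell 2.76-fold (log2 fold change -1.46, SE 0.08, edgeR adjusted p 1.22e-09, and 2.82e-05 against the 2-fold minimum). S100a9 had 0, 2 and 0 counts in the EL libraries and 0, 1 and 2 in the PT libraries, while S100a8 had 2058 counts over EL and 993 over PT. With 2 counts over EL and 3 over PT, S100a9 was at or under the limit of 3 counts in both groups (0.0249 CPM over EL and 0.0187 over PT). The filter on low counts kept S100a9 out of the test, and it is given no fold. The limit of 3 counts covers counting error only.

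Neutrophil genes, whose cells are the best known source of S100a8 and S100a9, moved in both directions. Of 12 listed genes 11 were found, 6 were tested, and 3 rose (Ltf, Cd177, Csf3r) and 3 fell (Mmp9, Mmp8, Camp). Across all genes tested, 80.7% were called. The metalloproteinase Mmp9 fell with S100a8, from 113 ± 0.767 to 3.18 ± 1.04 CPM (-5.14 on the log2 scale, SE 0.11), and so did Mmp8, from 21.0 ± 4.04 to 9.43 ± 1.51 CPM (-1.15, SE 0.13). Cd177 and Csf3r, named after their values were seen, rose from low levels. Cd177 went from 0.223 ± 0.0874 to 1.60 ± 0.152 CPM (2.82 on the log2 scale, SE 0.27). Csf3r went from 0.0420 ± 0.0727 to 0.249 ± 0.0184 CPM (2.51, SE 0.73). Other genes of neutrophil granules and identity, also named after their values were seen, were at low levels. Camp had 0.514 ± 0.0956 CPM over EL and 0.0562 ± 0.00230 over PT, Retnlg was at 0 in all libraries and Mpo at 0 in PT, and Elane, Ngp and Cxcr2 had group means of at most 0.0997 CPM. The summed level of the list, 1031 to 1215 CPM in EL and 1637 to 1762 in PT, was mostly Ltf (lactoferrin, also a milk protein), at 1011 ± 99.6 and 1672 ± 68.5 CPM. Keratinocyte genes, whose cells also make S100a8, summed to 7.65 to 8.20 CPM in EL and 6.48 to 7.47 in PT, and of 3 tested 1 rose and 2 were not called. The part of these cells in the S100a8 level was not tested.

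S100a14, an epithelial member, and S100a16, which can pair with it, both fell, but by different amounts. S100a14 was at 6.29, 6.75 and 7.22 CPM in EL and 2.44, 2.40 and 2.28 CPM in PT, a log2 fold change of -1.51 (SE 0.10, edgeR adjusted p 2.13e-08, and 1.75e-04 against the 2-fold minimum). S100a16 was at 148, 139 and 141 CPM in EL and 119, 114 and 117 CPM in PT, a log2 fold change of -0.29 (SE 0.03, edgeR adjusted p 4.26e-06). The count ratio of S100a16 to S100a14 was 21.2 ± 2.13 in EL and 49.2 ± 1.97 in PT. Epcam, an epithelial surface protein, rose in the same libraries from 482 ± 9.14 to 1167 ± 12.8 CPM, so that S100a14 per Epcam count went from 0.0140 ± 0.000822 to 0.00203 ± 0.0000730.

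S100a10 and S100a11, the annexin-binding members, were among the most abundant and changed little. S100a10, which forms a complex with Anxa2 and does not respond to calcium, was at 139, 153 and 149 CPM in EL and 123, 122 and 123 CPM in PT (log2 fold change -0.26, SE 0.04, edgeR adjusted p 2.94e-05). S100a11, a partner of Anxa1, was at 116, 105 and 114 CPM in EL and 117, 124 and 122 CPM in PT (log2 fold change 0.12, SE 0.04, edgeR adjusted p 0.0149). The highest EL and the lowest PT library of S100a11 were thus nearly level. Its call was lost without EL replicate 2 (log2 fold change 0.08, edgeR adjusted p 0.0752) and without PT replicate 2 (0.11, 0.0587). When libraries were scaled by their totals alone, the calls of S100a10 (-0.01, edgeR adjusted p 0.736) and S100a16 (-0.04, 0.249) were lost as well, and all log2 fold changes shifted upward by a median of 0.25. A processed pseudogene of S100a11 is annotated on chromosome 12, and reads that it shares with S100a11 could not be told apart.

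S100a1, known from muscle and as a binder of the ryanodine receptor, rose in PT. Its levels were 57.7, 62.7 and 61.6 CPM in EL and 103, 103 and 105 CPM in PT, with every PT library above every EL library. The difference was 0.77 on the log2 scale (SE 0.04, 95% interval 0.70 to 0.85, edgeR adjusted p 3.70e-10), below 2-fold. S100a13, its overlapping neighbour on the other strand, went the other way, from 23.4 ± 0.241 to 19.9 ± 1.06 CPM (log2 fold change -0.23, SE 0.05, edgeR adjusted p 1.13e-03), although with library totals alone its value was 0.014 (edgeR adjusted p 0.810). The count ratio of S100a1 to S100a13 was 2.59 ± 0.106 in EL and 5.22 ± 0.323 in PT, and such ratios within a library do not depend on the scaling.

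S100b, the glial and melanocytic member, had the highest fold rise of the 9 tested, from a low level. It was at 0.688, 0.982 and 0.972 CPM in EL, from 28, 39 and 39 counts, and at 5.27, 5.54 and 5.82 CPM in PT, from 270, 296 and 324 counts. The groups were far apart against the spread within each. The rise was 6.29-fold (log2 fold change 2.65, SE 0.15, 95% interval 2.33 to 2.97, edgeR adjusted p 1.87e-09, and 9.33e-08 against the 2-fold minimum), and 98.9% of tested genes had a lower log2 fold change. Schwann cell genes moved with it in part: of 8 tested 5 rose and 3 fell, where 80.7% of all genes tested were called. Their summed level was 292 to 311 CPM in EL and 844 to 848 in PT. Sox10 rose from 184 ± 5.71 to 513 ± 3.67 CPM and Mbp from 33.0 ± 0.496 to 89.8 ± 0.524 CPM. The part of these cells in the S100b level was not tested.

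**Figure D2:**
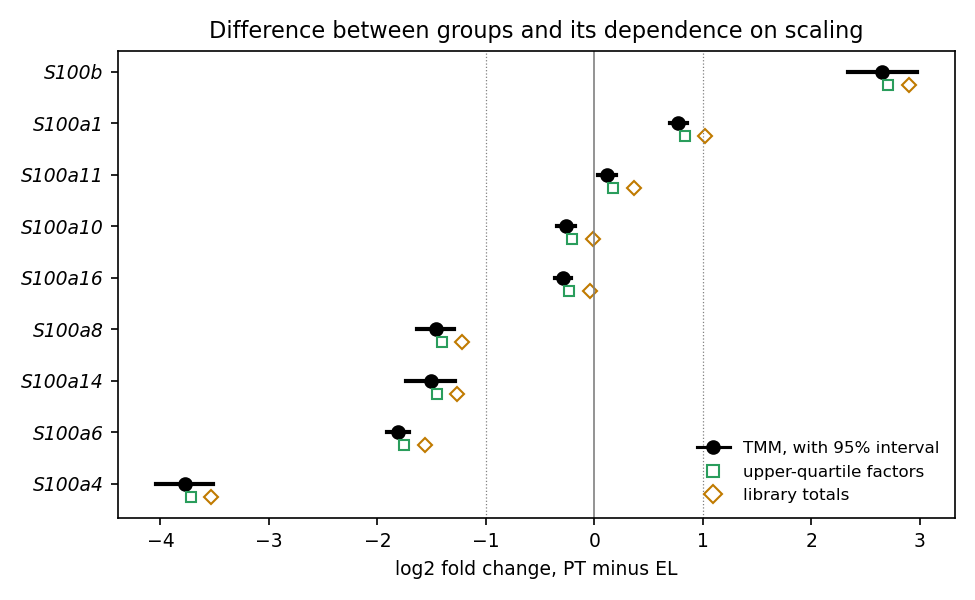
Log2 fold change, PT minus EL, of the 9 tested S100 genes (black points, TMM scaling, with 95% intervals) beside the values with upper-quartile factors (squares) and library totals (diamonds). Dotted lines mark 2-fold. The values of S100a10 and S100a16 move to -0.01 and -0.04 with library totals, while the 5 genes called by the 2-fold rule stay beyond the dotted lines under all 3 scalings.

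The summed S100 transcript level was lower in PT, and S100a6 (437 to 125 CPM) had the largest difference in CPM. The make-up of the pool changed as well. Summed over the 10 genes, the level was 952 ± 35.1 CPM in EL and 605 ± 1.56 CPM in PT. Levels of different genes were compared per kilobase of transcript, on which scale the sum was 1347 ± 51.3 in EL and 867 ± 2.61 in PT. S100a6 made up 44.4 ± 1.44% of that sum in EL and 19.7 ± 0.700% in PT. The share of S100a11 was 16.3 ± 1.13% and 27.3 ± 0.715%, that of S100a10 15.9 ± 0.591% and 20.7 ± 0.194%, and that of S100a16 9.45 ± 0.660% and 12.0 ± 0.277%. S100a1 held 6.65 ± 0.192% and 17.7 ± 0.218%. S100a4 went from 4.18 ± 0.553% to 0.474 ± 0.0395% and S100a8 from 2.61 ± 0.178% to 1.47 ± 0.0780%. S100a14 and S100b stayed below 1% in every library, and S100a9 was close to 0.

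The order of the CPM per kb differed between the groups. In EL it ran S100a6, S100a11, S100a10, S100a16, S100a1, S100a4, S100a8, S100a14, S100b and S100a9, and the ranges of S100a11 (206 to 227) and S100a10 (202 to 224) overlapped. In PT the order was S100a11, S100a10, S100a6, S100a1, S100a16, S100a8, S100a4, S100b, S100a14 and S100a9, and the libraries' ranges overlapped between S100a4 (3.798 to 4.464) and S100b (3.548 to 3.922). All other neighbours in either order had ranges that did not overlap.

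**Figure D3:**
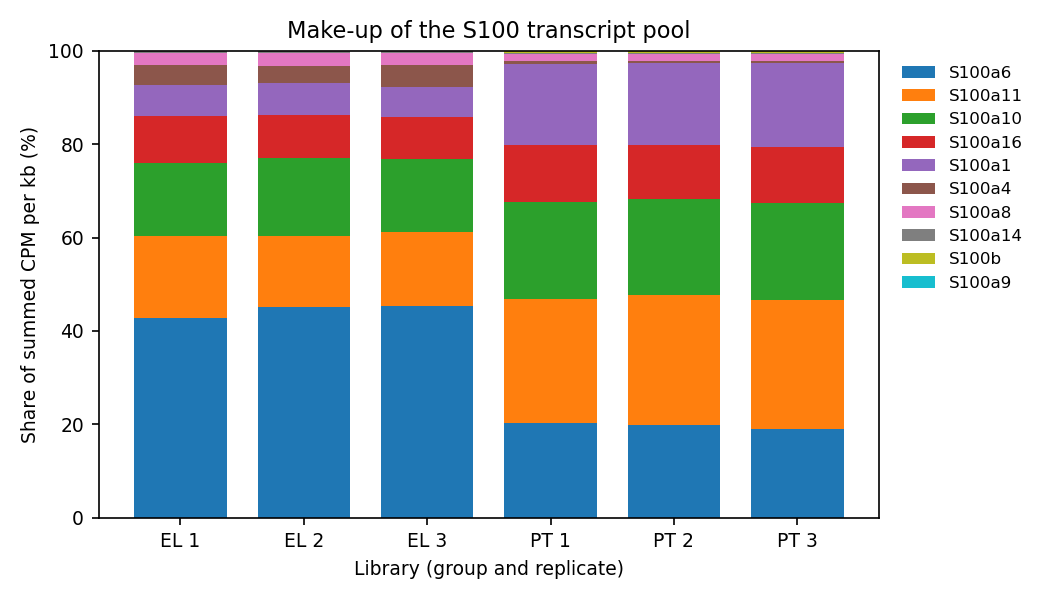
Share (%) of each S100 gene in the summed CPM per kb of the 10 genes, 1 bar per library. S100a6 takes 42.7 to 45.3% of the bar in the EL libraries and 18.9 to 20.2% in the PT libraries, where S100a11 is the most abundant.

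Within the chromosome 3 cluster, members that lie near one another changed by different amounts and in both directions. From S100a1 to S100a8, the tested members in order had log2 fold changes of 0.77 (S100a1), -1.51 (S100a14), -0.29 (S100a16), -3.78 (S100a4), -1.81 (S100a6) and -1.46 (S100a8). The distant pair S100a11 and S100a10 had 0.12 and -0.26. Of the 9 tested genes upstream of S100a1 that belong to other families, 1 rose (Slc27a3, 0.26), 3 fell (Npr1, -0.83, Slc39a1, -0.72, and Chtop, -0.18) and 5 were not called, although with library totals 6 rose and 2 fell. All 4 called values among these neighbours were smaller than 2-fold, and of all genes tested 80.7% were called.

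**Figure D4:**
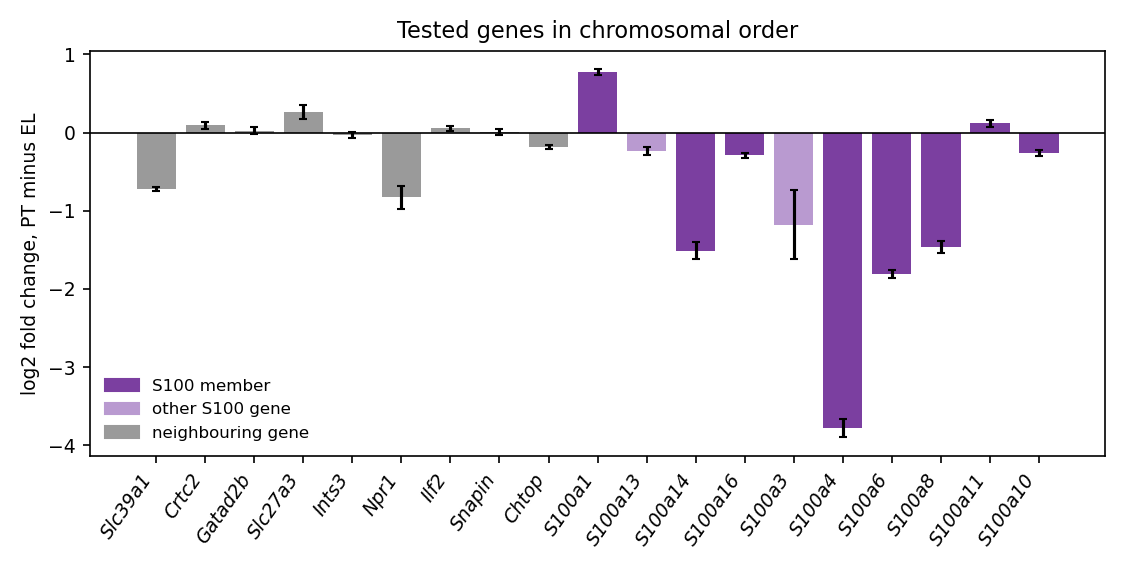
Log2 fold change, PT minus EL (bars, ± SE), of tested genes in their order along chromosome 3, with S100 genes of the 10 in dark purple, other S100 genes in light purple and neighbours in grey; S100a11 and S100a10 lie beyond a gap of 2825 kb. The bars of S100a14, S100a4, S100a6 and S100a8 reach below -1, and no grey bar does.

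Of the 7 S100 genes outside the 10 that the tables hold, S100a13 alone exceeded 1 CPM in the libraries compared. S100a3 had 43 counts over EL and 25 over PT (log2 fold change -1.18, SE 0.44, edgeR adjusted p 0.0264), and this call was lost in 6 of 17 alternatives, among them DESeq2 (adjusted p 0.0613) and library totals (edgeR adjusted p 0.0642). It also rests on single libraries: leaving out EL replicate 2 or 3, or PT replicate 2 or 3, gave values from -1.09 to -0.89 with edgeR adjusted p from 0.0736 to 0.107, while without PT replicate 1 the value was -1.79. S100a2 had 7 counts over EL and 0 over PT, and S100a5 had 5 and 0. S100g had 16 and 3, a ratio of CPM of 7.09 with a counting interval of 2.03 to 38.0, and S100z had none. S100a7a has no row in the incomplete table of EL replicate 1 and had 7 and 18 counts in the other EL libraries and 3, 1 and 1 in PT. S100a7l2 has no row under that symbol in any library and so could not be analysed.

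Partners and intracellular targets of S100 proteins were read from a list of 22 genes. Of these 9 rose, 12 fell and 1 was not called (Plaur, the urokinase receptor, named after its values were seen, 38.0 ± 3.41 and 36.6 ± 1.97 CPM, edgeR adjusted p 0.442). Over all genes tested, edgeR called 39.9% higher and 40.8% lower in PT. With library totals the list had 14 higher, 5 lower and 3 not called. The direction of the smaller changes on this list thus depends on the scaling. The annexins that bind the abundant members did not move as one. Anxa2, the partner of S100a10, fell from 644 ± 33.5 to 402 ± 6.68 CPM (-0.68 on the log2 scale, SE 0.04), more than S100a10 itself, so that the count ratio of S100a10 to Anxa2 was 0.228 ± 0.00427 in EL and 0.306 ± 0.00689 in PT. Anxa1, the partner of S100a11, rose from 734 ± 17.9 to 1082 ± 15.7 CPM (0.56, SE 0.03), and the count ratio of S100a11 to Anxa1 was 0.152 ± 0.01005 and 0.112 ± 0.00187. Anxa6, which binds S100a6, rose from 411 ± 30.9 to 658 ± 6.07 CPM (0.68, SE 0.05).

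The plasminogen activators, whose activity the complex of S100a10 and Anxa2 is known to support at the cell surface, fell most on this list. Plat (tissue plasminogen activator) fell from 345 ± 14.6 to 6.48 ± 0.518 CPM, a log2 fold change of -5.73 (SE 0.06, edgeR adjusted p 1.39e-16). Plau (urokinase) fell from 269 ± 28.7 to 30.8 ± 1.35 CPM (-3.12, SE 0.07). Ppfibp1 (liprin beta), a target of S100a4, fell from 258 ± 5.27 to 125 ± 1.14 CPM (-1.04, SE 0.03). Tpm1, a tropomyosin, rose from 362 ± 3.83 to 1401 ± 39.6 CPM (1.95, SE 0.03), and Tgm2, a transglutaminase that crosslinks S100 proteins, from 182 ± 4.23 to 595 ± 21.8 CPM (1.71, SE 0.04).

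A list of 9 genes was read as possible receptors of released S100 proteins, and whether each binds an S100 protein was not tested. Erbb3 and Cd68 on it are also on the lists of Schwann cell and macrophage genes. Of these 3 rose, 4 fell and 2 were not called, while 80.7% of all genes tested were called. Ager, the receptor best known for S100b and S100a8, named after its values were seen, was at 1.498, 1.08 and 1.15 CPM in EL and 1.29, 1.40 and 1.51 CPM in PT. These ranges overlapped, and the difference of 0.17 had a 95% interval of -0.23 to 0.57 (edgeR adjusted p 0.397). Tlr4, a receptor for S100a8, rose from 39.2 ± 0.106 to 64.0 ± 0.328 CPM (0.71 on the log2 scale, SE 0.03). Bsg (basigin) fell from 968 ± 126 to 442 ± 16.9 CPM (-1.13, SE 0.07) and its relative Emb (embigin) from 136 ± 5.23 to 22.3 ± 0.723 CPM (-2.60, SE 0.04). Alcam, an adhesion molecule reported to bind S100b, fell from 183 ± 7.70 to 67.3 ± 2.00 CPM (-1.44, SE 0.04). In the EGF receptor family, Egfr fell (-0.58, SE 0.03) and Erbb3 rose from 68.8 ± 7.63 to 204 ± 2.10 CPM (1.56, SE 0.06). Cd68, a macrophage protein, rose by 0.39 (SE 0.08), and Cd36, a scavenger receptor, was at 59.6 ± 5.64 and 54.9 ± 5.34 CPM (edgeR adjusted p 0.146).

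**Figure D5:**
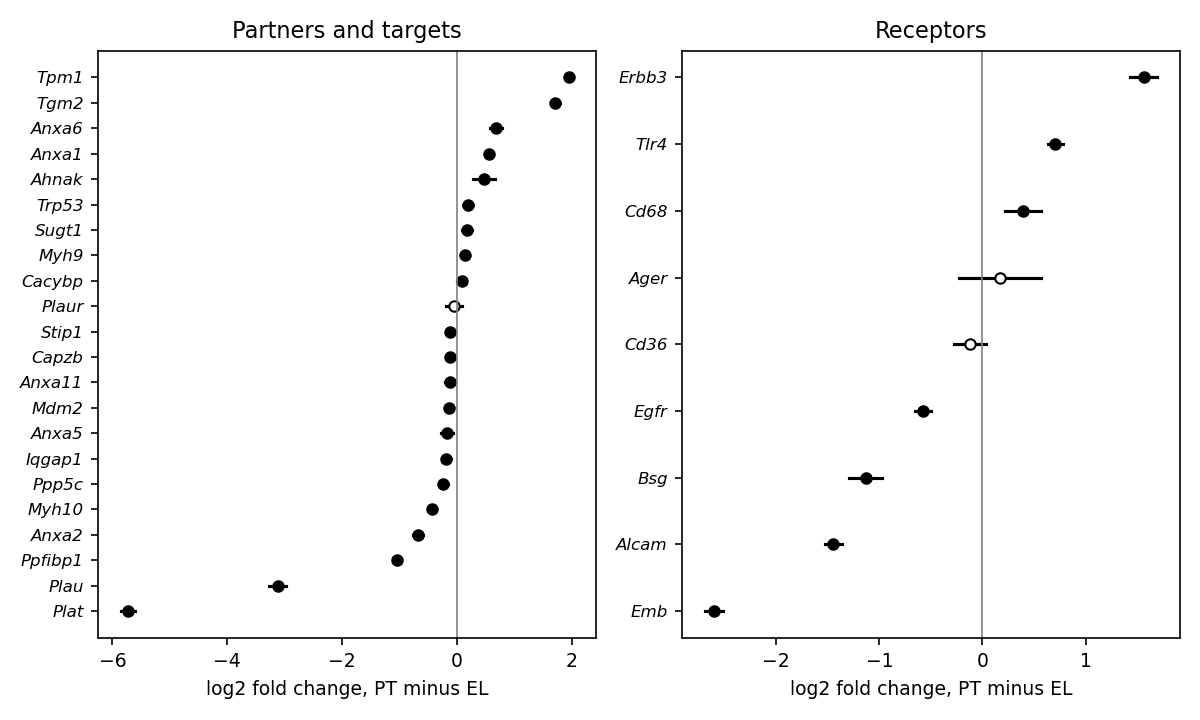
Log2 fold change, PT minus EL, with 95% intervals, of 22 partners and targets (left) and 9 possible receptors (right) of S100 proteins. Open points are genes that edgeR did not call. Plat lies at -5.73 and Tpm1 at 1.95 on the left, and Emb at -2.60 and Erbb3 at 1.56 on the right.

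Ratios were formed for 11 pairs, between members or between a member and another gene, after the members' values were known.
For each of them the 3 EL and 3 PT values did not overlap, as was also so for 82.7% of single genes tested. An exact two-sided permutation test gave p = 0.1, also after adjustment over the 11, which is the smallest p that 3 libraries against 3 allow. Since the pairs were chosen with the values known, neither the separation nor this p is evidence about them. The pairs not given above moved by 1.07 (S100a1 to S100a16), 1.90 (S100b to S100a1) and 0.35 (S100a8 to S100a6) on the log2 scale. S100a4 per count of Col1a1, a fibrillar collagen, was higher in PT by 2.97, and S100a6 per count of S100a10 went from 2.98 ± 0.116 to 1.02 ± 0.0403.

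Fibroblast genes fell with S100a4 and S100a6: 14 of 14 fell, with a median log2 fold change of -6.38 and a summed level of 75311 to 80412 CPM in EL and 767 to 913 in PT. Col1a1 fell from 19014 ± 487 to 178 ± 16.4 CPM, a log2 fold change of -6.74, against -3.78 for S100a4 and -1.81 for S100a6. Endothelial genes fell as well, 10 of 10, with sums of 287 to 310 and 6.91 to 8.10 CPM. Over all genes tested, edgeR called 40.8% lower and 39.9% higher in PT. Of 4 tested adipocyte genes 4 fell. Adipoq, Plin1, Lep and Cfd, named after their values were seen, were at 0 in PT. They were also near or at 0 in EL (means of 0.0830, 0.0167, 0 and 0.0335 CPM), and the filter kept them out of the test. Of 9 macrophage genes 7 rose and 1 fell, with sums of 70.6 to 89.8 and 162 to 188 CPM, whereas S100a4, also known from macrophages, fell. Luminal epithelial genes rose, 10 of 10, with sums of 2478 to 2537 and 9043 to 9362 CPM. S100a1 and S100b rose too, but S100a14 and S100a16, the members known from epithelium, fell (log2 fold changes of -1.51 and -0.29). Of 9 myoepithelial genes 3 rose and 6 fell. In spheres measured in bulk, fewer cells of a type and less RNA per cell cannot be told apart, and the part of these cell types in the levels of the S100 genes was not tested.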

How the data were processed

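RNA of 3 EL and 3 PT sphere libraries was sequenced, per the labels' protocols on an Illumina MiSeq, an instrument whose usual yield is below the deposited sums. Per the submitters' processing notes, STAR, featureCounts and DESeq2 were used, with mm10 and also hg19 as builds; their versions and the strandedness of counting are not given. The deposited files hold the authors' raw counts per RefSeq transcript, with a gene symbol on each of 33068 rows; the table of EL replicate 1 breaks off after 27664 rows. Rows present in all 6 tables were used, with 1 transcript per symbol (highest mean count).

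With edgeR 4.0.16 (R 4.3.3), the 13844 genes passing filterByExpr were tested (TMM factors, quasi-likelihood test, Benjamini-Hochberg adjustment over all genes, threshold 0.05), and by glmTreat against 2-fold. Code was tested on simulated data. Log2 fold changes are PT minus EL. Transcript lengths come from the GENCODE annotation. Depth limits S100b and the genes below it: the lowest count of a tested member in any library was 28. Named genes are the 10 members, the other S100 genes, and up to 8 partners, receptors, neighbours and EF-hand genes with the smallest p-values, and the 3 markers per cell type list with the highest mean CPM; others are named as chosen after their values were seen. The members and lists were chosen with earlier results of these data known. Between replicates of a group the chi-square per gene was at least 2.90, if each count is taken as 1 independent read. Since a count may not be that, this value cannot show variation beyond sampling noise. The 18 alternatives included other scalings, DESeq2 1.42.0, limma-voom (limma 3.58.1), other filters, a replicate block, thinned counts and leaving out each library.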

Additional observations from a re-analysis of the deposited data

How the results depend on the processing

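Over 18 alternatives, 144 of 144 counts of calls stayed within 1.5 times the value given, and 158 of 162 values of the 9 tested S100 genes kept their direction and side of the threshold. The 4 that lost their call are those of S100a10, S100a16 and S100a11 given above. Of 1291 values for 72 genes, 22 lost and 21 gained a call and 5 reversed, all 5 with library totals: S100a13 (0.014), Chtop (0.063), Ints3 (0.22), Plaur (0.19) and Anxa11 (0.13). That scaling left 3 members higher and 4 lower and raised the share of called genes that were higher in PT from 49.5% to 65.8%, so directions of changes under about 0.25 on the log2 scale are relative to it. Leaving out 1 library at a time gave 2 to 3 members higher, 6 lower, 20 to 21 partners and 7 to 8 receptors called, with 5277 to 5575 genes called higher in PT and 5481 to 5708 genes called lower in PT.

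Replicate numbers did not pair the libraries: deviations of same-numbered libraries from their group means correlated at 0.022, 0.0084 and -0.0022. With the replicate number as a block, 3 members were higher and 6 lower, as without it, 5539 genes called higher in PT and 5664 genes called lower in PT were counted, and Cd36 passed the threshold (-0.12, edgeR adjusted p 0.0176). Depth limits S100a9, S100a2, S100a5, S100g and S100z, which the filter on low counts kept out of the test. When that filter was left out, 10 members were tested and 1 was not called. Of the other S100 genes 5 were tested in that alternative, and 5 were called lower, some on few counts.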

Other observations

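Calcium-binding EF-hand proteins outside the S100 family moved in both directions. Of 27 listed genes 26 were tested, and 13 rose, 10 fell and 3 were not called in PT spheres. Their median log2 fold change was 0.08, and 80.7% of all genes tested were called. Among proteins that bind calcium in the secretory pathway, the reticulocalbins Rcn3 and Rcn1 and the related Calu (calumenin) fell: Rcn3 went from 407 ± 5.68 to 4.32 ± 0.321 CPM (log2 fold change -6.55, SE 0.05), Rcn1 from 242 ± 8.39 to 33.1 ± 1.19 CPM (-2.87, SE 0.04) and Calu from 967 ± 41.8 to 367 ± 0.940 CPM (-1.40, SE 0.04). Rcn2, named after its values were seen, was at 71.7 ± 2.30 and 72.8 ± 2.84 CPM and was not called (edgeR adjusted p 0.624). Efhd1, a mitochondrial calcium sensor, rose from 7.16 ± 0.777 to 102 ± 4.40 CPM (3.84, SE 0.06). The actin-binding alpha-actinins also rose, Actn4 from 1361 ± 35.0 to 3847 ± 95.5 CPM and Actn1 from 404 ± 2.93 to 849 ± 10.2 CPM. The nucleobindins went opposite ways, Nucb1 from 491 ± 15.9 to 228 ± 0.906 CPM and Nucb2 from 45.7 ± 3.25 to 167 ± 3.28 CPM. With library totals, 16 of the 26 rose and 9 fell.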
